A study of Mus musculus with 24 samples.

Results

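Macrophages of C3Bir mice were compared with macrophages of B6 mice on the arrays labelled unstimulated. The arrays were chosen by sample title, 3 of C3Bir and 3 of B6, and make up 6 of the 24 in the series. C3Bir mice (C3H/HeJBir-Il10tm1Cgn) are described as prone to colitis, and B6 mice (C57BL/6J-Il10tm1Cgn) as protected from it. All animals were male and carried the same targeted Il10 allele, so neither strain was a wild type, and the sources used here give no age. Bone marrow came from 3 mice per genotype. Marrow cells were grown for 6 days in RPMI1640 with 10% fetal calf serum, and RNA was taken from 3 pooled wells. The labels name no growth factor and do not say that equal array numbers share a mouse, so the p-values reflect only how far these arrays scatter, which may be technical. With 3 arrays per group their number limits the precision. The other groups used here, of 3 arrays each, were C3Bir and B6 macrophages given 1 µg/mL of Cbir1 flagellin for 4 h, and unstimulated macrophages of a pair of congenic Il10-deficient strains. CB-R1 (C3Bir.Cg-Il10tm1Cgn Cdcs1) is C3Bir with a long stretch of B6 chromosome 3 bred in. BC-R3 (B6.Cg-Il10tm1Cgn Cdcs1) is B6 carrying the Cdcs1 region from C3Bir. A difference between C3Bir and B6 sums over all alleles that separate these strains, of which the colitis locus Cdcs1 is one region.

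Macrophages sense microbes through Toll-like receptors and answer with cytokines, chemokines and type I interferon. Interferon acts back on the cell through STAT2 and IRF9, which act at the interferon-stimulated response element in promoters and switch on antiviral genes, guanylate-binding proteins, immunity-related GTPases and the Ifi200 family of DNA-binding proteins. IL-10, the cytokine lacking in all these mice, normally restrains this response in macrophages of the gut.

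Some arrays went against their labels. Averaged over 19 inflammatory cytokine genes, the log2 value on unstimulated arrays 1, 2 and 3 was 7.45, 8.58 and 8.47 in C3Bir and 8.03, 9.78 and 9.83 in B6. On the arrays labelled flagellin it was 7.54, 7.65 and 7.56 in C3Bir and 7.87, 7.72 and 7.52 in B6. Arrays 2 and 3 labelled unstimulated thus lay above every array labelled flagellin in both strains, although flagellin is known to induce such genes. Array 1 of B6 did so too, by less, and array 1 of C3Bir did not. Groups are named by their labels throughout. Results are also given without arrays 2 and 3 of both strains, and those fits keep array 1 of B6. Medians of all 24 arrays lay between 6.55 and 6.64 and lower quartiles between 5.29 and 5.42. The values carry no detection call, so for groups near or below that quartile differences are of signal and no fold is given. The macrophage genes Csf1r, the receptor for colony-stimulating factor 1, and Adgre1, which encodes F4/80, read 13.48 to 13.87 and 12.70 to 13.07 on the 6 arrays. Neutrophil transcripts were abundant as well: the mean over 10 neutrophil markers was 11.28, 10.82 and 10.56 in C3Bir and 10.74, 10.02 and 9.96 in B6. The Il10 probe set, which was not located relative to the targeted stretch, read 6.59, 7.44 and 7.25 in C3Bir and 7.16, 8.70 and 8.41 in B6. These ranges overlapped, and the difference of -0.996 ± 0.42 (log2 ± SE) did not pass in limma (adjusted p = 0.214, or 0.00583 with array number as a block).

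In all, 1104 of 18193 genes differed between C3Bir and B6 in limma at an adjusted p under 0.05, which is 6.07% of the genes tested. Of these 668 were higher in C3Bir (3.67%) and 436 were lower (2.4%), and 249 differed at least 2-fold (1.37%), 101 higher (0.555%) and 148 lower (0.813%). For each of the 1104 the 3 arrays of one strain lay apart from the 3 of the other, as they did for 28.3% of all genes. The count depended on single arrays. It was 233 without B6 array 2, 265 without B6 array 3, 242 without C3Bir array 2 and 234 without C3Bir array 3, but 3251 without B6 array 1. With array number as a block it was 2988 (16.4%, with 10.1% higher and 6.3% lower), of which 1102 were among the 1104. In all, 194 genes passed whichever array was left out, 112 higher and 82 lower in C3Bir. A fit of all 24 arrays that left aside unstimulated arrays 2 and 3 of both strains called 255 genes. That fit keeps 1 unstimulated array per strain and assumes that it varies like the arrays of the other groups.

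**Figure D1:**
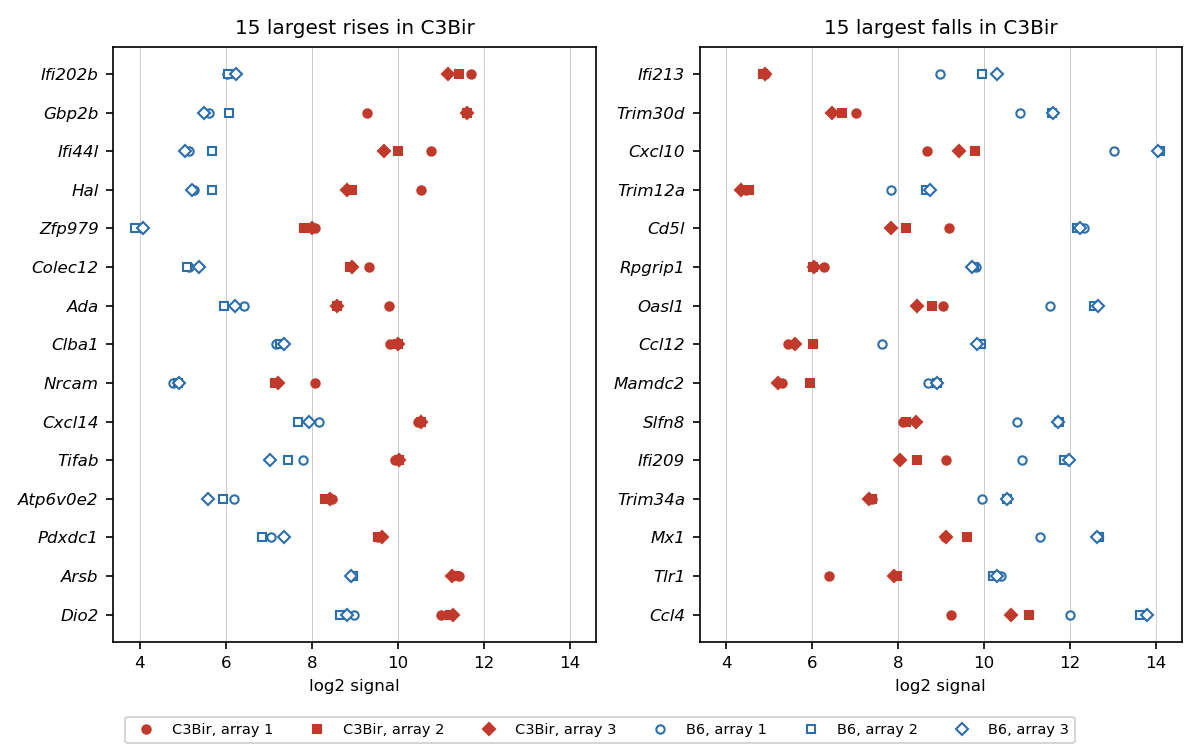
Log2 signal (x axis) of the 15 genes with the largest rises (left) and the 15 with the largest falls (right) in C3Bir on the arrays labelled unstimulated. Each point is 1 array, filled for C3Bir and open for B6, with the shape giving the array number; for Ifi202b the C3Bir arrays sit at 11.18 to 11.70 and the B6 arrays at 6.02 to 6.23, while for Cxcl10 array 1 of B6 lies below arrays 2 and 3.

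Several of the largest rises in C3Bir were of genes that gave little signal in B6. Ifi202b, an Ifi200 family protein that binds DNA and is induced by interferon, on chromosome 1, read 11.70, 11.43 and 11.18 in C3Bir and 6.02, 6.05 and 6.23 in B6. Every C3Bir array lay over 4 log2 units above every B6 array, and the difference was 5.34 ± 0.14 (limma adjusted p = 1.47e-05). Hal, histidine ammonia-lyase, which starts the breakdown of histidine, read 10.55, 8.94 and 8.82 in C3Bir and 5.27, 5.68 and 5.20 in B6. Array 1 of C3Bir was the highest, and the difference of 4.05 ± 0.45 passed in each leave-one-out fit (limma adjusted p = 0.00624, at most 0.0411). Colec12, a scavenger receptor of the collectin family, read 9.34, 8.88 and 8.93 in C3Bir and 5.14, 5.10 and 5.38 in B6, a difference of 3.84 ± 0.14. Its B6 arrays lay about the lower quartile of all signals. Zfp979, a zinc finger protein, read 8.07, 7.83 and 8.01 in C3Bir and 4.06, 3.90 and 4.08 in B6, below that quartile on each B6 array, a difference of 3.96 ± 0.09. Ada, adenosine deaminase, which clears immunosuppressive adenosine, read 9.79, 8.59 and 8.60 in C3Bir and 6.42, 5.96 and 6.21 in B6. The groups did not overlap, and the signal was 6.96-fold higher in C3Bir. The chemokine gene Cxcl14 read 10.46, 10.54 and 10.54 in C3Bir and 8.16, 7.67 and 7.93 in B6, a 6.04-fold difference, with its other probe set the same way. Dio2, the deiodinase that activates thyroid hormone inside cells, was 5.06-fold higher in C3Bir on its main probe set and higher on both others. Arsb, the lysosomal arylsulfatase B, was 5.32-fold higher, and Tifab, a relative of the signalling adaptor TIFA, 5.96-fold. Nrcam, a cell adhesion gene, Clba1, a clathrin-binding protein, and Atp6v0e2, a subunit of the proton pump of lysosomes, rose by 2.62, 2.68 and 2.50 in log2. For Nrcam the B6 mean was 4.85, below the lower quartile of all signals. Its 3 other probe sets differed by only 0.31, 0.11 and -0.09, none at an unadjusted p under 0.05. Clba1 has another probe set, which differed by 4.07. Glo1, which detoxifies methylglyoxal and is known to vary between inbred strains, rose by 1.36 ± 0.10, and all 3 of its other probe sets lay the same way at an unadjusted p under 0.05. All genes of this paragraph passed whichever array was left out and in the fit without arrays 2 and 3.

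Among the falls, some were as even across arrays. Rpgrip1, known from the cilium of photoreceptors, read 6.28, 6.02 and 6.06 in C3Bir and 9.81, 9.78 and 9.72 in B6. The arrays of a strain differed little, and the difference of -3.65 ± 0.08 had the lowest adjusted p of the comparison (limma, 1.26e-05). Mamdc2, an extracellular matrix protein, read 5.31, 5.96 and 5.21 in C3Bir and 8.70, 8.90 and 8.90 in B6, a difference of -3.34 ± 0.20. Cd5l, a secreted protein of tissue macrophages that supports their survival, read 9.19, 8.20 and 7.83 in C3Bir and 12.34, 12.16 and 12.23 in B6. B6 arrays were almost equal, C3Bir arrays varied, and the difference was -3.84 ± 0.32 (limma adjusted p = 0.00225). Tlr1, which pairs with Tlr2 to sense bacterial lipopeptides, read 6.40, 7.98 and 7.91 in C3Bir and 10.40, 10.22 and 10.30 in B6. C3Bir array 1 was the lowest, and the difference of -2.88 ± 0.40 had an adjusted p of 0.0129, which became 0.0716 without B6 array 2 and 0.0688 without B6 array 3. Ppbp, the platelet basic protein, read 6.30, 6.43 and 6.41 in C3Bir and 9.07, 9.05 and 9.11 in B6, a 6.48-fold lower signal in C3Bir. Catalase, Cat, which breaks down hydrogen peroxide, fell by 1.12 ± 0.12.

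A probe set can lose signal where a strain carries a variant under its probes. Of the 1104 genes 657 had another probe set, and 153 of these had one that lay the opposite way, 34 with an unadjusted p below 0.05. Ifi202b, Hal, Colec12, Zfp979, Ada, Mamdc2, Cd5l, Ppbp, Tlr1, Gbp2b and Olfml3 had no other. For them expression and probe variants cannot be told apart. The clearest conflict was H2-D1, the class I histocompatibility gene whose haplotype differs between these strains. Its main probe set read 11.23, 11.05 and 11.23 in C3Bir and 13.82, 13.69 and 13.86 in B6, but 5 of the 8 others lay the opposite way. One of these read 13.07 in C3Bir and 6.70 in B6, and another, of the same sign as the main one, 6.84 in C3Bir and 13.40 in B6. For Pdxdc1, a decarboxylase-like enzyme among the largest rises at 2.49 ± 0.13, each of the 3 others lay the opposite way, 2 at an unadjusted p under 0.05. The 3 other probe sets of Rpgrip1 had means of 4.36 to 5.38 and differed between the strains by -0.12 to -0.03. H2-Ea, the class II gene known to be silent in the b haplotype of B6, read 9.69, 9.50 and 9.60 in C3Bir and 9.40, 9.43 and 9.41 in B6 on its main probe set (limma adjusted p = 0.17), while a dimmer one had means of 6.98 in C3Bir and 5.87 in B6. Nnt, known to be disrupted in C57BL/6J, stood at 0.54 ± 0.14 and did not pass (adjusted p = 0.0722, or 0.00487 with the block and 0.0246 without B6 array 1). Another of its probe sets had means of 8.515 in C3Bir and 7.669 in B6, a difference of 0.846 (limma unadjusted p = 0.000604). The remaining, dimmer one differed by 0.113.

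The interferon-induced genes had many members lower in C3Bir. Of 31 interferon-stimulated genes measured, 22 fell and 0 rose, beside 2.4% and 3.67% of all genes, and 29 had a difference below 0. The list does not hold every interferon-induced gene: Ifi44l, Gbp2b and Ifi202b, which rose, were counted with chromosome 3, the GTPases and the Ifi200 family. The list's median was -1.37, beside -0.0049 over all genes. Oasl1, an oligoadenylate synthetase-like protein that damps interferon production in mice, read 9.05, 8.79 and 8.43 in C3Bir and 11.55, 12.56 and 12.65 in B6. Every B6 array exceeded every C3Bir array by over 2 log2 units, and the difference was -3.49 ± 0.31 (limma adjusted p = 0.00291). Mx1, the antiviral dynamin-like GTPase, read 9.10, 9.61 and 9.12 in C3Bir and 11.31, 12.69 and 12.63 in B6, a difference of -2.93 ± 0.37 (adjusted p = 0.0095, and 0.05 to 0.0577 without B6 array 2, B6 array 3 or C3Bir array 3). Ifit2 and Ifit3, of a family that binds viral RNA, fell, with differences of -1.99 and -1.88, and passed in each leave-one-out fit. Their relative Ifit1 fell by 2.16, and Cmpk2, a nucleotide kinase beside the viperin gene Rsad2, fell by 2.29. Neither passed without B6 array 2, B6 array 3 or C3Bir array 3, nor Cmpk2 without C3Bir array 2. The RNA sensors Ifih1 and Ddx58 fell by 2.16 and 1.42, Rsad2 by 1.37, and the signalling factors Stat2 and Irf9 by 1.32 and 0.41, each passing in 1 to 3 of the 6 leave-one-out fits. Irf7, which amplifies interferon production, read 11.71, 10.45 and 10.12 in C3Bir and 11.49, 12.20 and 12.33 in B6. C3Bir array 1 lay within the B6 range there, and the gene did not pass (limma adjusted p = 0.142). Ifitm3 and Ifi27l2a stood at 0.03 and 0.90 and did not pass either, although Ifi27l2a did with the block (adjusted p = 0.00404).

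A group of Trim genes on chromosome 7, of a family of ubiquitin ligases many of which respond to interferon, was among the largest falls. Trim30d read 7.03, 6.69 and 6.47 in C3Bir and 10.85, 11.59 and 11.61 in B6, a difference of -4.62 ± 0.24 (limma adjusted p = 0.000332). Trim12a read 4.47, 4.53 and 4.34 in C3Bir and 7.84, 8.65 and 8.75 in B6, below the lower quartile on each C3Bir array. Trim34a read 7.40, 7.40 and 7.32 in C3Bir and 9.95, 10.54 and 10.54 in B6, but its other probe set lay the opposite way, with 6.20 in C3Bir and 5.21 in B6. For Trim30d and Trim12a the other probe set was lower in C3Bir too, with differences of -2.66 and -0.39. Trim30a, a member of the interferon list known to restrain Toll-like receptor signalling, fell by 1.92. Slfn8, of the Schlafen family, read 8.12, 8.20 and 8.42 in C3Bir and 10.77, 11.75 and 11.73 in B6, a 9.02-fold lower signal in C3Bir. These 5 genes passed whichever array was left out, and Trim12a, Trim34a and Slfn8 also in the fit without arrays 2 and 3 of both strains.

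The Ifi200 family and the GTPases were split. Of 8 measured Ifi200 genes 6 fell, 1 rose and Aim2, the sensor of cytosolic DNA, did not pass at -0.57 (limma adjusted p = 0.0882, or 0.0332 with array number as a block). Ifi213 read 4.90, 4.85 and 4.91 in C3Bir and 8.99, 9.95 and 10.30 in B6, below the lower quartile on the C3Bir arrays, a difference of -4.86 ± 0.31 (adjusted p = 0.000751) that its other probe set shared at -4.27. Ifi209 and Ifi204 fell by 3.04 and 1.93, while Ifi202b was the largest rise of all. Of 11 interferon-inducible GTPases 5 fell, among them Ifi47 at -2.15, Iigp1, which attacks parasite vacuoles, at -2.08 and Irgm2 at -1.73. Of these falls that of Ifi213 passed whichever array was left out. Without B6 array 2 the adjusted p was 0.0526 for Ifi209, 0.0501 for Ifi47, 0.0966 for Iigp1 and 0.0526 for Irgm2, and it also exceeded 0.05 for Ifi209 and Ifi204 without C3Bir array 2, for Ifi204, Irgm2 and Iigp1 without C3Bir array 3, and for Iigp1 without B6 array 3 or C3Bir array 2. Gbp2b, a guanylate-binding protein of chromosome 3, rose: it read 9.29, 11.61 and 11.61 in C3Bir and 5.60, 6.08 and 5.49 in B6. Arrays 2 and 3 of C3Bir lay over 2 log2 units above array 1, and the difference was 5.12 ± 0.61 (limma adjusted p = 0.00804). Gbp2, Gbp3 and Gbp7, of the same family and chromosome, stood at -1.78, -1.30 and -1.78 and did not pass, but each did with the block (adjusted p = 0.000178, 0.000263 and 0.00288).

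The counts in these lists rested on arrays 2 and 3. The interferon list averaged 10.65, 10.51 and 10.30 in C3Bir and 11.39, 12.09 and 12.12 in B6 on arrays 1, 2 and 3, so each B6 array lay above each C3Bir array. On array 1 alone the median difference of its members was -0.71. In the 24-array fit without arrays 2 and 3 of both strains 0 members passed in limma, while 1 had an unadjusted p under 0.05, and the Ifi200 genes and GTPases had 1 and 0 fallen. The interferon list had 4 fallen without B6 array 2, 5 without B6 array 3, 7 without C3Bir array 2 and 4 without C3Bir array 3. The GTPases had 0, 2, 2 and 1 fallen in the same fits, 3 without C3Bir array 1 and 8 without B6 array 1, and the Ifi200 genes had 3 without C3Bir array 2. With array number as a block 25 interferon genes fell and 1 rose, and 9 GTPases and 7 Ifi200 genes fell. Stromal cell markers moved with the same arrays. Their mean over 14 genes was 7.32, 7.81 and 7.57 in C3Bir and 7.86, 8.66 and 9.11 in B6, all 14 differences were below 0, and 1 passed, that of Postn, a matrix protein that read 6.59, 7.19 and 6.96 in C3Bir and 8.46, 9.83 and 10.60 in B6. With the block 8 of the 14 fell, without B6 array 1 9 and without array 1 of both strains 11, and in each of the other 5 leave-one-out fits 0 did. Their part in the interferon result was not tested, and in bulk RNA fewer cells of a type and less RNA per cell cannot be told apart.

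Promoters of 6 of these genes are shown because the genes lay among the largest falls or, on chromosome 3, among the largest rises. Windows of 300 bases from RefSeq (GRCm38.p6), 250 before and 50 after the start of the gene, were searched on both strands for GAAA, any 2 bases and GAAA again, the core of the interferon-stimulated response element. Matches are in capitals, and where the match lies on the other strand the capitals read TTTC, 2 bases and TTTC. The sequences are of the C57BL/6J reference genome, 5′ to 3′ along the gene.
Cxcl10 (chr5:92348840-92349139, minus strand): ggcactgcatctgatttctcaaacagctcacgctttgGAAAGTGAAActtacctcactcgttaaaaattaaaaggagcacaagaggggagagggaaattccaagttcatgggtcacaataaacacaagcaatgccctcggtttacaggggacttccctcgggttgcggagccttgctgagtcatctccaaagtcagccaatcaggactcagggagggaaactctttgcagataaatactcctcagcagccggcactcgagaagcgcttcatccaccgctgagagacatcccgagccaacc
Trim30d (chr7:104507800-104508099, minus strand): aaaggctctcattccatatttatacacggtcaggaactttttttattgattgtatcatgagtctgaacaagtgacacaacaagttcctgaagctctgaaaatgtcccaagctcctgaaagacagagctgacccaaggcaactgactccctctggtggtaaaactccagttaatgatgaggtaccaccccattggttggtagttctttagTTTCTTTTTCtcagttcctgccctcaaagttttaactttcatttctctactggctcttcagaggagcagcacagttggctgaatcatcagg
Trim12a (chr7:104315446-104315745, minus strand): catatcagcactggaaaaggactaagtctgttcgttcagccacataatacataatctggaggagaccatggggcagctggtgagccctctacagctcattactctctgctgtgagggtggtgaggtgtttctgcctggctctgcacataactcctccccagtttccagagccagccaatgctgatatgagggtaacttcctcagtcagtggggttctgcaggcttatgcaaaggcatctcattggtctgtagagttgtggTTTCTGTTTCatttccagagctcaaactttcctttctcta
Trim34a (chr7:104244207-104244506, plus strand): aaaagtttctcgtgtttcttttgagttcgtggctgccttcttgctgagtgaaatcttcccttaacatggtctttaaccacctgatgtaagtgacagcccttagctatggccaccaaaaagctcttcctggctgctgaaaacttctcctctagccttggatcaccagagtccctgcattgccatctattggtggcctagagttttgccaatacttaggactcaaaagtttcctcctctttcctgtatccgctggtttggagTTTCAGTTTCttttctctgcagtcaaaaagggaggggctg
Gbp2b (chr3:142594597-142594896, plus strand): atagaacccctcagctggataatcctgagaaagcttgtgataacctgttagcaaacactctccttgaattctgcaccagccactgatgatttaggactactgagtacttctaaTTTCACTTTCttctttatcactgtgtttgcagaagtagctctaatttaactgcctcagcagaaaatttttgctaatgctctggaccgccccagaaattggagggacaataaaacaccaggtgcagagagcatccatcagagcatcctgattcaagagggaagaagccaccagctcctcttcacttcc
Ifi44l (chr3:151762842-151763141, minus strand): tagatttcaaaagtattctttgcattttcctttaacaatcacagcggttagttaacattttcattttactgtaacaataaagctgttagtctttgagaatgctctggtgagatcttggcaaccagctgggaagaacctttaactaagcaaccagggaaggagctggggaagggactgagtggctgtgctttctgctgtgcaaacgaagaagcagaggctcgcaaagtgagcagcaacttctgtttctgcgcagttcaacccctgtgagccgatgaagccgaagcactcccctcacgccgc
Cxcl10, Trim30d, Trim12a, Trim34a and Gbp2b each hold 1 match, and Ifi44l holds 0. The match of Cxcl10 ends 203 bases before the start of the gene, that of Gbp2b 127 bases and that of Trim30d 31 bases before it, while those of Trim12a and Trim34a lie after the start. Of all 32851 windows 3.44% hold a match, and of the windows of genes tested 3.63%. Among genes lower in C3Bir 47 of 363 with a window hold one (12.9%), and among those higher in C3Bir 15 of 548 (2.74%). The falls shown here all hold a match, but they do not stand for the rest. Among the 15 largest falls 12 have a window, and 6 of these hold a match (50%). Oasl1 and Ifi209, for example, hold 0. Of the 15 largest rises 14 have a window and 2 hold a match (14.3%). In the interferon list 12 of 22 members with a window hold it (54.5%), and among the cytokines 0 of 13. Of the interferon list's members called lower in C3Bir 7 of 15 with a window hold it (46.7%). A match is a stretch of letters and not a binding site, and its absence says only that these letters are not in the window.

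**Figure D2:**
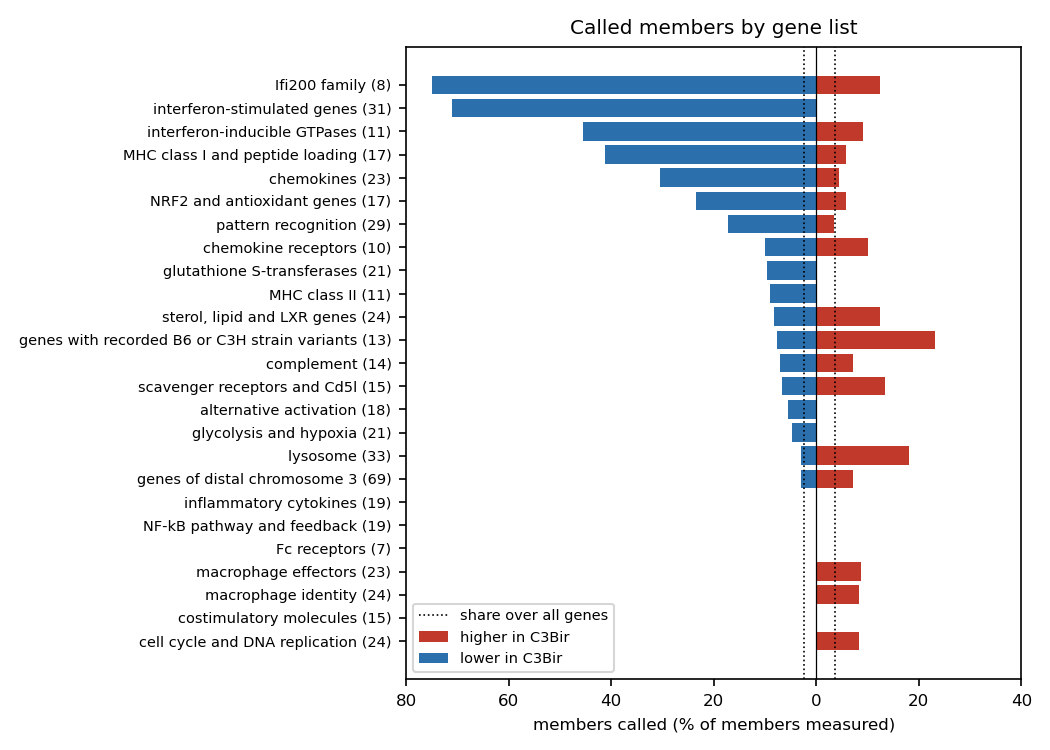
Share of the measured members of each gene list that were called (x axis, percent) as higher (red, right) or lower (blue, left) in C3Bir, with the number measured in brackets and dotted lines at the shares over all genes. The Ifi200 family (6 of 8), the interferon-stimulated genes (22 of 31) and the GTPases (5 of 11) have the longest bars to the left, and the cytokine and NF-kB lists have none.

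Most chemokines lay below 0, and a minority passed. Of 23 measured, 18 had a difference below 0, 7 fell and 1, Cxcl14, rose, and the median was -1.39. Over all genes 2.4% fell and 3.67% rose. Cxcl10, which draws T cells to inflamed tissue, read 8.68, 9.79 and 9.41 in C3Bir and 13.03, 14.10 and 14.06 in B6. The lowest B6 array lay over 3 log2 units above the highest C3Bir array, and the difference of -4.43 ± 0.37 was a 21.6-fold lower signal (limma adjusted p = 0.00228). It passed in each leave-one-out fit but not in the fit without arrays 2 and 3 of both strains (adjusted p = 0.201). Cxcl9, which acts on the same receptor, fell by 2.73 and passed in 1 of the 6. Ccl12, a ligand of the monocyte receptor Ccr2, read 5.45, 6.03 and 5.60 in C3Bir and 7.64, 9.94 and 9.85 in B6. Ccl4, which attracts monocytes and T cells, read 9.24, 11.06 and 10.63 in C3Bir and 11.99, 13.64 and 13.79 in B6. In both genes B6 array 1 was the lowest of its strain, and the differences of -3.45 ± 0.60 and -2.83 ± 0.61 (limma adjusted p = 0.0245 and 0.0467) passed in 1 of the 6 leave-one-out fits, that without B6 array 1. Ccl5, which attracts T cells, read 9.06, 11.88 and 11.73 in C3Bir and 12.92, 13.999 and 13.99 in B6 and did not pass (-2.75 ± 0.76, adjusted p = 0.0863, 0.00325 with the block and 0.0411 without C3Bir array 1). Cxcl1 and Cxcl2, which attract neutrophils, stood at 0.02 and -0.99 and did not pass. The list had 14 fallen with the block, 13 without B6 array 1, 2 without B6 array 2, 2 without B6 array 3, 4 without C3Bir array 1, 3 without C3Bir array 2, 2 without C3Bir array 3 and 3 without arrays 2 and 3 of both strains.

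Inflammatory cytokines did not pass. Of 19 measured genes 0 were called in limma, 4 had an unadjusted p under 0.05, all lower in C3Bir, and the median was -0.72. Il6, which drives the acute phase, read 4.005, 5.72 and 5.17 in C3Bir and 4.69, 10.93 and 11.21 in B6. Array 1 of B6 lay within the C3Bir range and arrays 2 and 3 far above it, so the difference of -3.97 ± 1.68 had an adjusted p of 0.216. Tnf read 8.64, 11.45 and 11.16 in C3Bir and 11.40, 13.31 and 13.26 in B6. Il1b, the pyrogen released through inflammasomes, read 8.94, 11.79 and 11.65 in C3Bir and 10, 13.20 and 13.29 in B6. In both genes array 1 was the lowest of each strain, and the strains overlapped. Il12b, the subunit shared by IL-12 and IL-23, read 5.60, 9.29 and 9.75 in C3Bir and 7.36, 11.64 and 11.63 in B6, a difference of -1.996 ± 1.49 (limma adjusted p = 0.474). With array number as a block, which takes the step between array 1 and the others out of the error, 11 cytokines were lower and 1 higher in C3Bir, with Il6, Tnf, Il1b and Il12b at adjusted p values of 0.0343, 0.000835, 0.0012 and 0.000423. Without B6 array 1 11 were lower, without array 1 of both strains 15, and without arrays 2 and 3 of both 1. The 19 genes of the NF-kB pathway gave 0 calls in limma and 5 at an unadjusted p under 0.05, all lower in C3Bir, and 12 were lower with the block. Nos2, the inducible nitric oxide synthase, read 6.29, 6.67 and 6.43 in C3Bir and 6.43, 8.02 and 8.32 in B6 (adjusted p = 0.204, or 0.049 with the block and 0.00127 without B6 array 1).

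**Figure D3:**
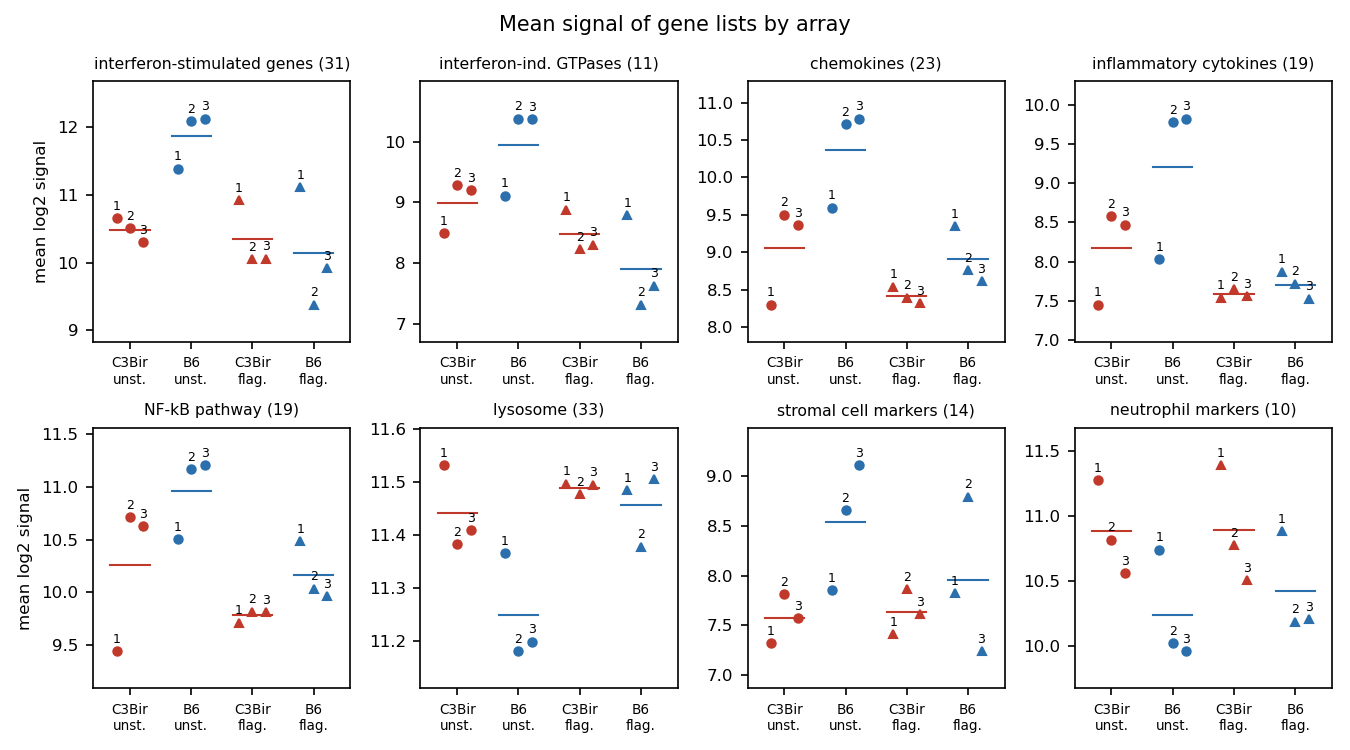
Mean log2 signal (y axis) of the members of 8 lists on each array of C3Bir (red) and B6 (blue), labelled unstimulated (circles) or flagellin (triangles), with the array number above each point, a line at the group mean and the number of genes in brackets; the y axes differ in range and do not start at 0. In the interferon list all B6 unstimulated arrays lie above all C3Bir ones, in the cytokine list array 1 of each strain lies below arrays 2 and 3 on the unstimulated side, and the arrays labelled flagellin overlap between the strains in both lists.

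The calls among sensing and presentation genes were mostly falls, where 2.4% of all genes fell and 3.67% rose. Of 29 pattern recognition genes 5 fell and 1 rose. Besides Tlr1 the falls included Nod1, a sensor of bacterial cell wall peptides, at -1.74 ± 0.31, and Myd88, the adaptor of most Toll-like receptors, at -0.87 ± 0.17. Clec7a, the receptor for fungal glucans, read 12.11, 12.19 and 12.28 in C3Bir and 11.49, 11.49 and 11.44 in B6 and rose by 0.72. Tlr5, the surface receptor for flagellin, read 7.46, 7.35 and 7.37 in C3Bir and 7.22, 7.41 and 7.36 in B6, and Naip5, which senses it in the cytosol, stood at 0.31 ± 0.18. Neither passed. Tlr4, known to carry a missense mutation in C3H/HeJ, read 8.60, 8.10 and 7.95 in C3Bir and 8.18, 8.21 and 8.04 in B6, and the strains overlapped. Of 17 genes of class I presentation 7 fell and 1 rose. Tap1, the peptide transporter, read 8.996, 9.10 and 9.04 in C3Bir and 10.57, 11.57 and 11.57 in B6, a 4.56-fold lower signal in C3Bir, and Nlrc5, the class I transactivator, fell by 2.39. The 3 other probe sets of Tap1, which were dimmer, differed by only -0.18, -0.38 and -0.26. H2-T24, a nonclassical class I gene, rose by 1.78 ± 0.22. Of 11 class II genes H2-Ab1 alone passed, at -1.12 ± 0.23 (limma adjusted p = 0.038, not without array 2 or 3 of either strain). The pattern recognition and class I lists had 0 to 1 and 2 fallen without array 2 or 3 of either strain, and 2 and 1 in the fit without these arrays of both. With the block 11 and 11 fell, as did 4 class II genes. Nod1 failed in each leave-one-out fit but that without B6 array 1, and Myd88 and Nlrc5 failed without array 2 or 3 of either strain.

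Among the called genes of digestion and metabolism rises prevailed in the lysosomal list and falls in the antioxidant list. Over all genes 3.67% rose and 2.4% fell, 6.07% together. The shares called in the cell cycle and macrophage identity lists were not far from that. Of 33 lysosomal genes 6 rose and 1 fell, and the median was 0.19. Ctsl, a major cathepsin, read 13.87, 13.94 and 14.03 in C3Bir and 13.29, 13.24 and 13.18 in B6. The strains did not overlap, and the difference was 0.71 ± 0.07 (limma adjusted p = 0.00402), although a much dimmer second probe set lay the opposite way. Ctsk, the cathepsin of osteoclasts, rose by 0.94, Gusb, the beta-glucuronidase, by 0.57, and Smpd1, the acid sphingomyelinase, by 0.40, while the calcium channel gene Mcoln3 fell. Of these Ctsl passed whichever array was left out. Ctsk and Gusb did not pass without array 2 or 3 of either strain, Mcoln3 without any of the C3Bir arrays, and Smpd1 passed in 2 of the 6 leave-one-out fits. With the block 15 rose, without B6 array 1 13, and without array 2 or 3 of either strain 1. Of 17 NRF2 and antioxidant genes 4 fell and 1 rose: Cat, Gclm, of glutathione synthesis, at -0.81 ± 0.16, Keap1, the inhibitor of NRF2, at -0.76 ± 0.13 and Taldo1, of the pentose phosphate pathway, at -0.37, against Gpx1, a glutathione peroxidase, at 0.39. Cat alone of these passed whichever array was left out, and with the block 7 fell and 2 rose. In the list of 24 sterol, lipid and LXR genes the lipid transporter and carriers Abcg1, Fabp4 and Fabp5 rose by 0.39, 0.30 and 0.35, and the lipid carrier Apoe and the lipogenic factor Srebf1 fell by 0.73 and 0.56. Of 24 cell cycle genes the replication helicase subunit Mcm6 and the mitotic kinase Bub1 rose, by 1.31 and 0.64, beside a list median of 0.25. The other probe set of Bub1, which was dim, lay the opposite way at -0.27 (unadjusted p = 0.0207). With the block 4 lipid genes rose and 3 fell, and 4 cell cycle genes rose. Abcg1, Fabp5, Apoe, Srebf1, Mcm6 and Bub1 did not pass without B6 array 2, C3Bir array 2 or C3Bir array 3, and Fabp4 passed in 1 of the 6 leave-one-out fits. Of 24 macrophage identity genes 2 rose, the transcription factor Maf, which read 11.25, 11.24 and 11.37 in C3Bir and 10.70, 10.59 and 10.53 in B6, and Timd4, a receptor for dead cells, by 0.46, which did not pass without array 2 or 3 of either strain. With the block 6 of the 24 rose.

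Other lists had few calls, several of them near the 6.07% of all genes. Of 10 chemokine receptors Ccr1 rose and Ccr3 fell, of 14 complement genes Cd59a rose and C1qb fell, and of 15 scavenger receptor genes Msr1 and Colec12 rose and Cd5l fell. Mmp12, the macrophage elastase, and Ncf4, of the NADPH oxidase, rose among 23 effector genes, and Gsta3 and Gstp1 fell among 21 glutathione S-transferases. Alox15 fell by 0.28 among 18 genes of alternative activation and Aldoa, a glycolytic enzyme, by 0.39 among 21 genes of glycolysis and hypoxia. The 15 costimulatory and 7 Fc receptor genes had 0 calls in limma, and 4 of each list had unadjusted p values under 0.05. With the block 4 costimulatory genes fell, among them Cd40 and Cd274 (limma adjusted p = 0.0024 and 0.00118), and 2 Fc receptor genes rose and 1 fell. Without array 1 of both strains 8 costimulatory genes fell. With the block the complement list had 2 risen and 4 fallen, the effectors 3 and 6, alternative activation 2 and 3, glycolysis and hypoxia 1 and 4 and the chemokine receptors 2 and 1. In these 5 lists 0 genes passed in limma without array 2 or 3 of either strain, and in the glutathione S-transferases at most 1. Of the scavenger receptors 1 rise and 1 fall passed in those fits. Of 13 genes known to vary in B6 or C3H strains Ifi202b, Glo1 and Gusb rose and Cd5l fell.

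Few markers of other cells passed, where 3.67% of all genes rose and 2.4% fell. All 10 neutrophil markers lay higher in C3Bir, by a median of 0.50, and 0 passed in limma, while 4 reached an unadjusted p under 0.05 and 7 passed with the block. Without array 1 of both strains 9 passed, without B6 array 1 5 did, and in each of the other leave-one-out fits 0. In the congenic strains 9 of the 10 were called higher in CB-R1 than in BC-R3, with a median of 1.18. Of 8 erythroid and megakaryocyte markers 4 fell, Ppbp, Itga2b, Pf4 and Gp9. Itga2b, a platelet integrin, read 7.46, 7.43 and 7.54 in C3Bir and 8.07, 8.23 and 8.31 in B6, with no overlap, and like Ppbp it passed whichever array was left out, while Pf4 and Gp9 did not pass without array 2 or 3 of either strain. Atp6v0d2 and Ctsk rose among 9 osteoclast markers, and Ccr3 fell by 0.31 among 5 eosinophil markers. Markers of B cells (1 gene with an unadjusted p under 0.05), of T and NK cells (1), of dendritic cells (2), of mast cells and basophils (2) and of endothelial cells and adipocytes (0) had 0 calls in limma. With the block 1 gene rose in each of the lists for B cells, T and NK cells, and endothelium and fat, 1 fell among those of mast cells and basophils, and 0 passed for dendritic cells. Of 9 genes on the Y chromosome 3 rose, Kdm5d, Uty and Eif2s3y, by 1.23, 0.84 and 0.96; these were picked after their values were seen.

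The strain contrast on the 6 arrays labelled flagellin used none of the arrays above. Marrow came from 3 mice per genotype, however, so these arrays may repeat the same animals. There 665 genes differed (3.66%), 353 higher (1.94%) and 312 lower (1.71%) in C3Bir, and 247 to 400 without C3Bir array 2 or 3 or B6 array 1 or 3. The split was 274 higher and 334 lower after median centring of the arrays, and 345 higher and 366 lower after quantile normalization. Of the 1104 genes 1026 kept their sign (92.9%, beside 60.9% of all genes), and 348 were called in the same direction and 0 in the opposite one. The 15 largest rises were all called again. Ifi202b read 12, 11.10 and 11.35 in C3Bir and 5.69, 5.93 and 6.28 in B6 there, a difference of 5.52 ± 0.23, and Hal stood at 4.81 ± 0.24. Of the 15 largest falls 9 were called again, among them Rpgrip1 at -3.78, Cd5l at -4.07, Tlr1 at -3.27 and Trim30d at -2.96. The interferon list had 0 of 31 members called there in limma, while 2 had an unadjusted p under 0.05, both higher in C3Bir, and a median of 0.27. Mx1 read 9.85, 8.38 and 8.35 in C3Bir and 10.60, 7.23 and 8.32 in B6, and Oasl1 read 9.56, 8.25 and 8.17 in C3Bir and 10.53, 8.08 and 8.02 in B6. In both genes the strains overlapped and array 1 was the highest of each. Cxcl10 read 9.29, 8.40 and 8.48 in C3Bir and 12.14, 8.84 and 9.69 in B6, with B6 array 1 far above the others (-1.50 ± 0.71, limma adjusted p = 0.393). Whether the strain difference changed between the labels was tested on the 12 parental arrays. No gene passed in limma, 1643 had an unadjusted p under 0.05, among them 24 of the 31 interferon genes, and the lowest adjusted p was 0.498. The count became 519 without B6 unstimulated array 1.

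**Figure D4:**
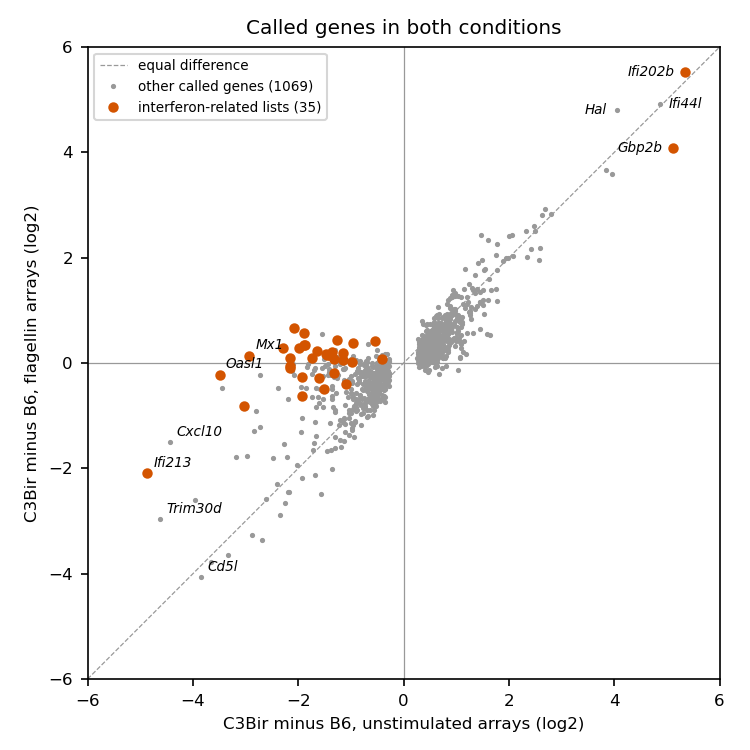
Difference of C3Bir minus B6 (log2) on the arrays labelled unstimulated (x axis) and on those labelled flagellin (y axis) for the 1104 genes called on the unstimulated arrays, with the 35 called members of the interferon-stimulated, GTPase and Ifi200 lists in orange. Ifi202b and Ifi44l lie near the dashed line of equal difference, while Mx1 and Oasl1 lie near 0 on the flagellin axis.

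The congenic strains carry these backgrounds with segments of chromosome 3 exchanged, and their arrays are separate from those above. CB-R1 against BC-R3, unstimulated, gave 1424 called genes (7.83%), 808 higher (4.44%) and 616 lower (3.39%) in CB-R1. After median centring of the arrays the split was 623 higher and 943 lower. The count was 496 to 600 without CB-R1 array 1, CB-R1 array 2 or BC-R3 array 2, 800 without BC-R3 array 3 and 2138 without BC-R3 array 1. Of the 1104 genes 891 had the same sign there as in C3Bir against B6 (80.7%, beside 55.4% of all genes), 339 were called in the same direction and 8 in the opposite one. Off chromosome 3 856 of 1048 kept the sign (81.7%, beside 55.7% of all genes there), and on chromosome 3 33 of 53 (62.3%, beside 48.8%). Hal stood at 4.56, Rpgrip1 at -3.84 and Cd5l, which lies on chromosome 3, at -2.83, each called in the same direction. The interferon list had 4 genes higher and 0 lower in CB-R1 than in BC-R3, with a median of 0.33. The test of the difference between the parental and the congenic contrast called 188 genes (1.03%), 21 of them among the 913 on chromosome 3 (2.3%). Chromosome X had 12 of 617 called (1.94%), and chromosomes 1 and 13 had 1.42% each. Of the 188 the difference was above 0 for 112 (0.616%) and below 0 for 76 (0.418%), and after median centring for 240 and 83. The count was 8 to 20 without array 2 or 3 of C3Bir, B6 or BC-R3 or array 1 or 2 of CB-R1, 364 without C3Bir array 1, 1938 without B6 array 1 and 981 without BC-R3 array 1. Of the 188, 7 passed whichever of the 12 arrays was left out, and 4 of these lie on chromosome 3: Ifi44l, Olfml3, Mcoln3 and Chil3. The other 3 were Clec2d, Nufip2 and Rnf128, the last 2 picked after their values were seen.

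Ifi44l, an interferon-induced gene of distal chromosome 3, read 10.78, 10.002 and 9.68 in C3Bir and 5.14, 5.68 and 5.04 in B6. In the congenic strains it read 5.44, 5.08 and 5.33 in CB-R1 and 10.71, 9.77 and 9.54 in BC-R3, so it was high in C3Bir and BC-R3 and near the lower quartile in B6 and CB-R1. The contrasts were 4.87 ± 0.30 and -4.72 ± 0.28, and they differed by 9.59 ± 0.46 (limma adjusted p = 4.06e-06). Gbp2b, at place 832 of the 913 measured chromosome 3 genes where Ifi44l is at place 874, read 6.01, 5.62 and 6.06 in CB-R1 and 10.99, 8.50 and 8.05 in BC-R3, and its contrasts differed by 8.40 ± 1.03 (limma adjusted p = 0.0103). Olfml3, a secreted olfactomedin-like protein at place 602, ran the other way. It read 7.17, 7.42 and 7.35 in C3Bir and 10.29, 9.07 and 9.60 in B6, and 10.27, 10.08 and 10.17 in CB-R1 and 7.55, 7.58 and 7.90 in BC-R3. Mcoln3, a calcium channel of endosomes at place 859, read 5.93, 5.95 and 5.99 in C3Bir and 6.79, 6.53 and 7.25 in B6, and 7.73, 7.86 and 7.49 in CB-R1 and 5.96, 6 and 6.08 in BC-R3. In both genes every array of B6 and CB-R1 lay above every array of C3Bir and BC-R3. Gbp2b and Olfml3 have no other probe set, so for them expression and a probe variant that follows the exchanged segment cannot be told apart. Between C3Bir and B6 the 2 other probe sets of Ifi44l and the other one of Mcoln3 lay the same way as the main ones. The ends of the exchanged segments are not given in the sources used here. Of 69 listed genes of distal chromosome 3 5 rose and 2 fell in C3Bir, beside 3.67% and 2.4% of all genes. The rises were Gbp2b, Ifi44l, Dnajb14, Cryz and Casp6. Of the 913 genes of chromosome 3 as a whole 5.81% were called, beside 6.07% of all genes. Within the list of 69 genes 9 rose and 8 fell with the block, and without array 2 or 3 of either strain 2 to 3 rose and 1 to 2 fell.

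**Figure D5:**
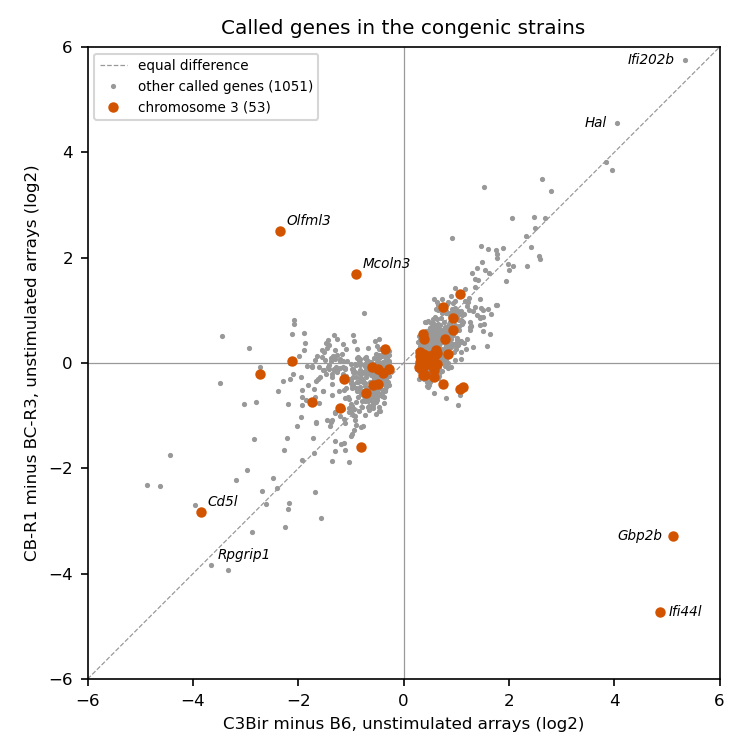
Difference of C3Bir minus B6 (x axis) and of CB-R1 minus BC-R3 (y axis), both in log2 on the arrays labelled unstimulated, for the 1104 genes called between C3Bir and B6, with the 53 of chromosome 3 in orange. Of the 1104, 891 lie in the quadrants of equal sign, and Ifi44l, Gbp2b, Olfml3 and Mcoln3 lie far into those of opposite sign.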

How the data were processed

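RNA of bone marrow-derived macrophages was hybridised to Affymetrix mouse arrays, 1 array per sample. The authors deposited 1 table of log2 values for 45037 probe sets on 24 arrays. Its normalization and software are not given in the sources used here, and no scanner values were used, so signal over background is unknown. Values were used as deposited, and 4 probe sets without a value were left out. Of the others 34944 carry 1 gene symbol in the platform annotation, 932 several and 9158 none. Each of 18193 genes was read from its brightest probe set, by the mean of the 24 arrays, and 9010 genes have over 1. No 2 arrays were identical.

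Arrays were grouped by their labels. The test was limma's (version 3.58.1, R 4.3.3, lmFit and eBayes, two-sided), on the 6 arrays of a comparison, or the 12 for a difference of differences. P-values were adjusted by Benjamini-Hochberg over all genes, and genes under 0.05 were called. The procedure was tested on simulated data for C3Bir against B6: of 18193 genes 200 were changed, 82 of 100 with a log2 change of 1 and 99 of 100 with a change of 2 were recovered, and 12 unchanged genes were called.

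Array numbers come from the labels. Between C3Bir and B6, unstimulated, deviations of same-numbered arrays correlated at 0.55, 0.41 and 0.36, while arrays 2 and 3 also correlated across numbers at 0.42 and 0.38. These values set array 1 apart in both strains but do not show that arrays 2 and 3 pair by number. The block by array number is therefore given as an alternative, and in this comparison it leaves 2 residual degrees of freedom per gene. Blocked counts are given for gene lists, and blocked p-values for those genes whose values are described and whose call the block changes.

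The text names the 15 largest rises and falls among called genes without overlap, up to 4 called and 3 bright members of each of 25 gene lists and 10 marker lists, a fixed set of genes, and the 10 largest differences between the parental and congenic contrasts. The members and lists were chosen with earlier results of these data known. Of 648 listed genes 569 were measured. The alternatives tried were other normalizations, filters, probe set rules, array weights, a block and arrays left out.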

Additional observations from a re-analysis of the deposited data

Results flagged for a closer look

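For 12 named genes the difference between C3Bir and B6 was itself different from that between CB-R1 and BC-R3 on the unstimulated arrays (limma, 12 arrays, adjusted over all genes). The values below are the parental minus the congenic log2 difference. Ifi44l stood at 9.59 (adjusted p = 4.06e-06), Olfml3 at -4.84 (0.000101), Mcoln3 at -2.58 (0.000479), Chil3, a chitinase-like protein of macrophages, at -2.57 (0.00738) and Clec2d, a C-type lectin, at -2.30 (0.00278). These 5 passed whichever array was left out. Gbp2b stood at 8.40 (0.0103) and passed in 11 of the 12 leave-one-out fits, with an adjusted p of 0.0521 without CB-R1 array 2.

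Chil3 read 11.99, 11.83 and 11.53 in C3Bir and 12.37, 11.999 and 11.96 in B6, and 13.03, 13.04 and 13.18 in CB-R1 and 11.41, 10.58 and 10.53 in BC-R3. Its parental difference did not pass (-0.33, limma adjusted p = 0.259, or 0.0398 with array number as a block), and its congenic one was 2.24. Clec2d read 8.45, 9.18 and 8.77 in C3Bir and 9.04, 9.37 and 9.18 in B6, and 9.03, 8.68 and 9.06 in CB-R1 and 6.98, 7.05 and 7.02 in BC-R3. Its parental difference was -0.40 (limma adjusted p = 0.253, or 0.0345 with the block).

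The other 6 passed in at most 6 of the 12 leave-one-out fits. Anp32a, a nuclear phosphoprotein, stood at -2.90 (adjusted p = 0.0189) and read 8.68, 9.35 and 8.99 in C3Bir and 11.02, 11.11 and 11.12 in B6, while CB-R1 array 3, at 8.996, lay apart from the other CB-R1 arrays at 10.37 and 10.34. Between C3Bir and B6 its main probe set differed by -2.08 and its 2 others by -0.45 and -0.39. Dnajb14, a chaperone partner, stood at 1.58 (0.0222) and Gstp1, a glutathione S-transferase, at -0.73 (0.0139). The matrix genes Col3a1, Fn1 and Pcolce stood at -2.66, -2.56 and -2.43 (0.0481, 0.0416 and 0.0472), and none of these 3 passed with array number as a block (0.0903, 0.0726 and 0.0903). A dim second probe set of Col3a1 differed by 0.02 between C3Bir and B6, against -0.73 on the main one. Those of Fn1 and Pcolce lay the same way as the main ones. In the leave-one-out fits Anp32a passed in 5, Dnajb14 in 4, Gstp1 in 6, Col3a1 in 2, Fn1 in 3 and Pcolce in 2 of 12. Col3a1 and Fn1 are members of the stromal marker list, whose mean on B6 arrays 2 and 3 lay above that on the other 4 parental arrays. That mean was 8.69, 8.33 and 8.23 in CB-R1 and 7.35, 7.76 and 7.81 in BC-R3, and its part in these differences was not tested.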

How the results depend on the processing

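Counts of called genes moved with the spread that a fit used. C3Bir against B6, unstimulated (1104), gave 3046 with all 24 arrays, 2821 probe sets with each tested, 4197 with array weights, 2988 with the replicate block, 233 to 3251 without 1 array, 5093 without array 1 of both strains, 255 without arrays 2 and 3 of both and 249 at 2-fold. Under quantile normalization, median centring, the low filter, probe set means and the trended robust fit it was 1139, 1100, 1141, 1171 and 1058. On flagellin (665) these gave 1207 with 24 arrays, 1072 with all probe sets, 1632 with weights, 1078 with the block, 247 to 664 without 1 array and 174 at 2-fold. The change between labels (0 in limma, 1643 at an unadjusted p under 0.05) gave 1501 with weights, 0 to 519 without 1 array and 541 without array 1 of both. CB-R1 against BC-R3 (1424) gave 3003 with all probe sets, 4756 with weights, 637 with the block, 496 to 2138 without 1 array and 222 at 2-fold. The difference of the contrasts (188) gave 686 with 24 arrays, 119 with quantile normalization, 323 with median centring, 1135 with all probe sets, 324 with probe set means, 4688 with weights, 36 with the block, 8 to 1938 without 1 array, 2064 without array 1 of both, 5 without arrays 2 and 3 of both and 43 at 2-fold. The causes were not tested. In the other groups same-numbered arrays correlated at 0.32, 0.53 and -0.01 on flagellin and at -0.34, 0.17 and -0.48 between the congenic strains. Array numbers thus paired neither set throughout.

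Of the 129 named genes 126 kept their call under quantile normalization, 129 under median centring, 108 with the block (21 more passed) and 74 without arrays 2 and 3 of both strains (49 no longer passed). A call did not change sign in any of these. The sign of 10 uncalled genes did. Without arrays 2 and 3 of both strains Fcer1g stood at 0.0305, Ighm at 0.033, Flt3 at 0.0222, Tpsb2 at 0.2012 and Kdr at 0.1971. Without array 1 of both Cd4, Pecam1, Tlr4 and Tlr5 stood at -0.013, -0.0815, -0.0966 and -0.0255. With array weights Pecam1 and Tlr4 stood at -0.031 and -0.0565, and with quantile normalization Fcer1g at 0.0076. Over the fits without 1 array the lowest and highest differences were -0.0444 and 0.0107 for Fcer1g, -0.7524 and 0.0474 for Ighm, -0.1008 and 0.1501 for Cd4, -0.072 and 0.0083 for Flt3, -0.133 and 0.0525 for Tpsb2, -0.115 and 0.0234 for Kdr, -0.1278 and 0.0989 for Pecam1, -0.1159 and 0.2076 for Tlr4 and -0.1746 and 0.0019 for Adgre1.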
